A study of Mus musculus with 12 samples.

Results

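The genes of the MYC, MAX and MXD network were followed in mouse follicular (FO) B cells before and after stimulation through TLR9 and the type I interferon receptor. The 9 genes, Myc, Mycn, Max, Mxd1, Mxd3, Mxd4, Mxi1, Mnt and Mlx, were chosen by name, and all 9 were among the 22561 genes of the count table. MYC and MYCN are transcription factors of the basic helix-loop-helix leucine zipper family that bind DNA only as dimers with MAX, and they activate genes of ribosome biogenesis, nucleotide synthesis and the cell cycle. MXD1, MXD3, MXD4, MXI1 and MNT also dimerize with MAX, bind the same E-box sequence and recruit the SIN3 corepressor with histone deacetylases, so they act as antagonists of MYC. MLX is a MAX-like factor that pairs with the glucose-sensing MondoA (encoded by Mlxip) and with some of the antagonists, and Myc is well known in B cells as a gene induced upon entry into the cell cycle.

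RNA was taken from FO B cells (sorted on surface markers that included B220hi, AA4.1-, CD23+ and CD21mid) that had been isolated from the spleen of C57BL6 mice 10 weeks of age. The 4 groups of 3 samples were FO B cells without stimulus and FO B cells given IFNα, CpG (a TLR9 ligand) or CpG + IFNα for 12 h. The RNA was sequenced in search of pathways that change the level of IRF4, a transcription factor needed for plasma cell differentiation. The labels do not say whether the unstimulated cells were also cultured for 12 h, nor whether replicates came from separate mice, so p-values measure the spread between these samples, which may be technical.

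Between 922450 and 2923865 unique molecular identifiers (UMIs) were counted per sample, with fewest in unstimulated cells and most with CpG + IFNα. Levels are given as CPM, the UMI counts scaled to a common library total after TMM normalization, and because UMIs are counted at the 3′ end, CPM does not grow with transcript length. Levels of different genes are set side by side on this scale, on which the part of their annotated 3′ ends was not tested. Genes called "DEGs" had an adjusted p under 0.1 by edgeR's quasi-likelihood test with Benjamini-Hochberg adjustment over 9431 genes and changed more than 2-fold (log2 fold change over 1), whereas "rose" and "fell" need only the adjusted p. Of the 9 B cell markers checked, all 9 had counts in every group, and their summed level ranged from 8703 to 9877 CPM in unstimulated cells, from 7327 to 8201 CPM with IFNα, from 1608 to 1779 CPM with CpG and from 1364 to 1505 CPM with CpG + IFNα. The summed T cell list ranged from 30.6 to 42.3 CPM unstimulated, from 41.5 to 51.5 CPM with IFNα, and from 4.25 to 9.91 CPM over the samples with CpG, with Cd3g and Cd8a at 0 in all samples. The plasmacytoid dendritic cell list, of which 4 of 6 genes had counts in each group and Siglech and Klk1 had none, ranged from 756 to 1050 CPM over all samples. The erythroid list ranged from 15.1 to 341 CPM without CpG and from 4.96 to 71.6 CPM with it. The summed level of the myeloid list, which includes genes that B cells can express, ranged from 357 to 424 CPM in unstimulated cells, from 442 to 551 CPM with IFNα, from 83.3 to 105 CPM with CpG and from 74.3 to 89.8 CPM with CpG + IFNα. The marginal zone B cell list ranged from 457 to 591 CPM without CpG, from 519 to 563 CPM with CpG alone and from 272 to 286 CPM with CpG + IFNα, so that it was lower in the CpG + IFNα samples than in all others. The plasma cell list ranged from 252 to 376 CPM unstimulated and from 179 to 269 CPM over the stimulated samples. In bulk RNA, fewer cells of a type and less RNA per cell cannot be told apart. The part of these marker levels in the results was not tested.

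The 4 network genes with a canonical E-box (CACGTG, the sequence that MYC:MAX and MXD:MAX dimers share, and a palindrome that reads the same on both strands) near their start are shown first, because they carry in their own promoters the letters that dimers of the network bind. Promoters of 300 bases (250 before and 50 after the RefSeq start) were on hand for 8 of the 9 genes, the exception being Myc. The E-box is in capitals, and the sequence is on the strand of the gene, from RefSeq on GRCm38.p6, ending no later than the start or the end of the E-box.
Mxd4, chr5:34187910-34187960, minus strand: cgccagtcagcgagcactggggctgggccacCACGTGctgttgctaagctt
Mnt, chr11:74830761-74830820, plus strand: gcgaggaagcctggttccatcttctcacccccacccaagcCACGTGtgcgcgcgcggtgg
Mlx, chr11:101087210-101087269, plus strand: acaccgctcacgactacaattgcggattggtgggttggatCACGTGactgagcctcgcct
Max, chr12:76962246-76962291, minus strand: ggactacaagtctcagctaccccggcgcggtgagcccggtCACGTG

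The E-box began 219 bases upstream of the RefSeq start in Mxd4, 123 in Mnt, 40 in Mlx and 3 in Max, where it spans the start. Of all 32851 promoters of this length, 7.15% held the sequence, and of the 9178 promoters of genes tested here 11% did. It was in 4 of the 10 promoters of the network genes, and not in those of Mycn, Mxd1, Mxd3 or the 3 promoters of Mxi1. A match is a description of the letters and does not show binding. The 4 genes with the sequence did not share a pattern across the stimuli, since Mxd4 and Mnt were lower with CpG, Max was higher and Mlx did not pass the test in that comparison, as described below.

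Counts were uneven across the network. Of the 9 genes, 7 passed the filter on low counts. Mycn (chromosome 12, 12936093 to 12941914 of GRCm38), which is best known from neural and early progenitor cells, had a single UMI in all 12 samples, in a CpG + IFNα sample. Mxd3 (chromosome 13, 55325168 to 55329823), an antagonist often found in dividing cells, had 12 UMIs in all. Its counts were 1, 0 and 0 in unstimulated cells, 2, 3 and 2 with IFNα, 0, 0 and 0 with CpG, and 1, 2 and 1 with CpG + IFNα, all at or under the limit of 3 counts per sample that a count of 0 allows. Mycn and Mxd3 were not tested, and although the Mxd3 counts with IFNα lay above those of unstimulated and CpG samples, no change is read from counts this low. Limits of this kind cover counting error only. The 3′ end of Mxd3 overlaps that of Prelid1 on the opposite strand, which had 791 UMIs, and because the strand setting of the counting is not stated, reads of the overlap cannot be told apart.

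**Figure D1:**
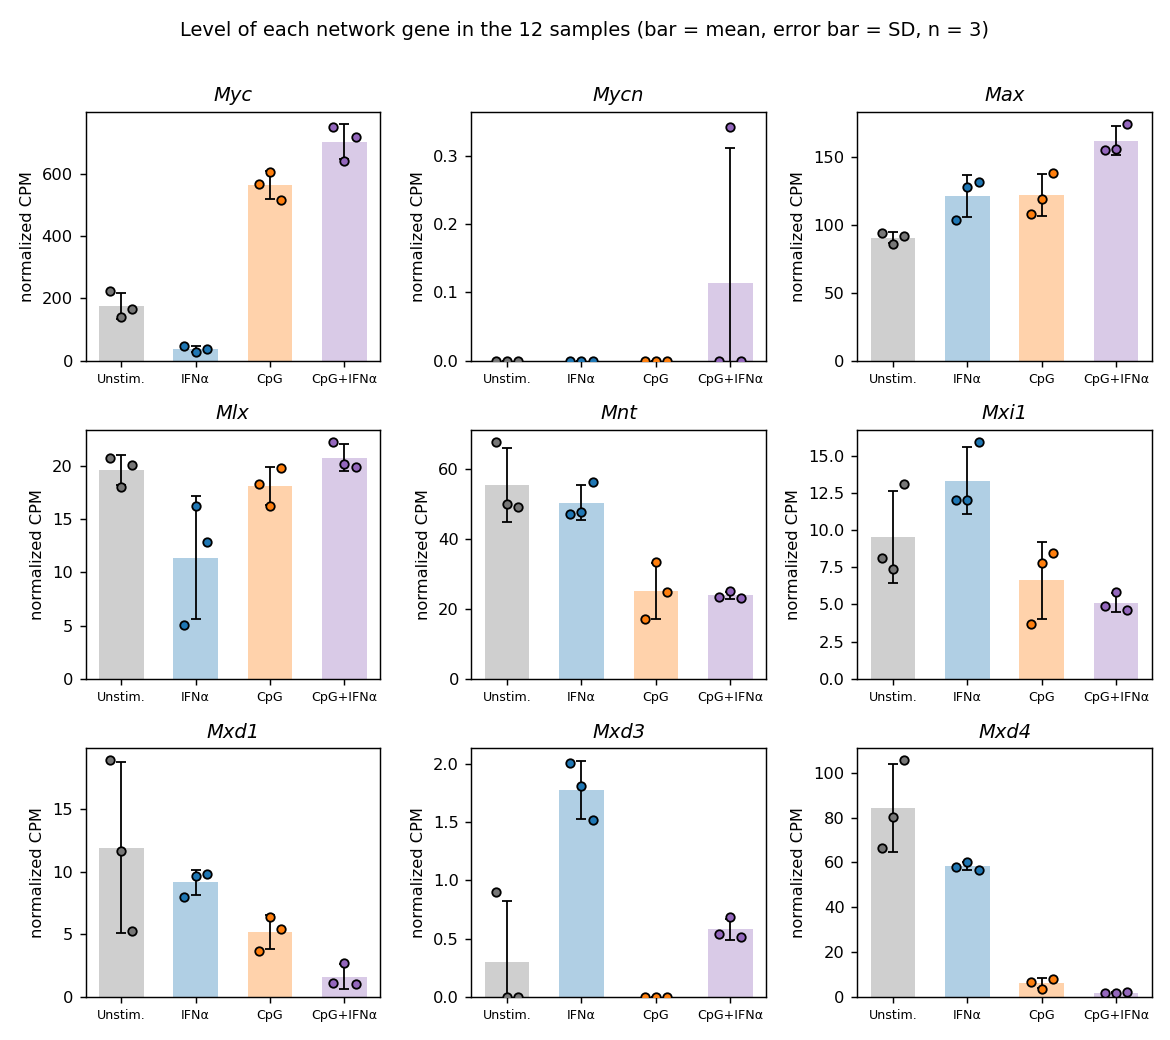
Normalized CPM of the 9 network genes in unstimulated FO B cells and after 12 h with IFNα, CpG or CpG + IFNα, with 1 point per sample, bars at the mean and error bars for the SD (n = 3); each panel has its own linear axis from 0. Myc is lowest with IFNα and highest with CpG + IFNα, Mxd4 is at 56.8 CPM or more in every sample without CpG and at 7.93 CPM or less in every sample with it, and Max lies between 85.7 and 174 CPM throughout.

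Myc (chromosome 15, 61985391 to 61990374) moved in opposite directions with the 2 stimuli. Its level was 222, 142 and 166 CPM in the 3 unstimulated samples, 48.1, 26.5 and 38.6 CPM with IFNα, 569, 606 and 517 CPM with CpG, and 751, 642 and 720 CPM with CpG + IFNα. The 4 groups did not overlap and stood in the order IFNα, unstimulated, CpG and CpG + IFNα. With IFNα alone, Myc fell from 177 ± 41.4 to 37.7 ± 10.8 CPM (SD, n = 3 per group), a 4.87-fold decrease, with a log2 fold change of -2.28 (SE 0.18, adjusted p = 4.69e-12 by edgeR). With CpG it rose 3.16-fold to 564 ± 44.8 CPM (SD, n = 3), a log2 fold change of 1.66 (SE 0.14, adjusted p = 2.94e-12 by edgeR), and with CpG + IFNα it rose 3.95-fold to 704 ± 56.0 CPM (SD, n = 3).

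The decrease with IFNα was not seen once CpG was present. CpG + IFNα compared with CpG gave a log2 fold change of 0.32 for Myc (95% interval 0.06 to 0.58), which narrowly missed the threshold (adjusted p = 0.101 by edgeR), although the samples of the groups did not overlap. Over 22 alternatives the value ranged from 0.25 to 0.38 and the adjusted p from 0.0107 to 0.333, with 13 of them under 0.1. The interaction (the IFNα effect in the presence of CpG less that in its absence) was 2.60 on the log2 scale (SE 0.22, adjusted p = 3.78e-10 by edgeR), and between 2.37 and 2.78 in all 21 alternatives. Set against IFNα alone, CpG + IFNα gave a 19.2-fold higher level (log2 fold change 4.26, SE 0.17). Another gene of rapid induction, the immediate-early gene Fos, separated the unstimulated samples from all others, at 1255 ± 180 CPM there and at 5.04 ± 0.244, 6.19 ± 2.58 and 4.53 ± 2.18 CPM under IFNα, CpG and CpG + IFNα (SD, n = 3 per group). The interaction of Fos was 7.41 on the log2 scale (SE 0.58, adjusted p = 4.78e-11 by edgeR). Whether the state that Fos marks in the unstimulated samples had a part in the levels of Myc was not tested. If the unstimulated cells were not cultured, IFNα and culture cannot be told apart in the decrease of Myc.

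Max (chromosome 12, 76937269 to 76962201), the obligate partner, changed far less. Its samples had 93.6, 85.7 and 91.7 CPM unstimulated, 103, 128 and 132 CPM with IFNα, 108, 119 and 138 CPM with CpG, and 155, 156 and 174 CPM with CpG + IFNα. All stimulated samples were above all unstimulated ones, and the CpG + IFNα samples were above all others, whereas IFNα and CpG overlapped with each other. Max rose with IFNα (log2 fold change 0.43, adjusted p = 0.0256), with CpG (0.43, adjusted p = 0.0054) and with CpG + IFNα (0.83, adjusted p = 9.3e-07), all by edgeR. It was also higher with CpG + IFNα than with CpG, by 0.40 on the log2 scale (95% interval 0.16 to 0.64, adjusted p = 0.0201 by edgeR), and than with IFNα, by 0.40 as well. No difference between IFNα and CpG was found (log2 fold change 0.00, 95% interval -0.25 to 0.26), and the interaction was -0.02 (95% interval -0.39 to 0.34). Some calls rested on a setting. The adjusted p became 0.109 for IFNα without IFNα replicate 3 and 0.144 for CpG + IFNα compared with CpG without CpG replicate 1. When counts were thinned to the smallest total it became 0.21 for CpG and 0.11 for CpG + IFNα compared with IFNα. A gene inside Max on the same strand, Gm47218, had 62 UMIs against 2485 for Max.

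Among the antagonists, Mxd4 (chromosome 5, 34173883 to 34187720), a family member known from resting and differentiated cells, had the highest mean in unstimulated cells, although Mnt was above it in 1 of the 3 samples, and the greatest decrease of the 4 antagonists tested. It had 66.6, 80.4 and 106 CPM unstimulated, 58.1, 60.2 and 56.8 CPM with IFNα, 6.71, 3.54 and 7.93 CPM with CpG, and 1.63, 1.71 and 2.04 CPM with CpG + IFNα. The groups did not overlap. Mxd4 fell 13.3-fold with CpG (log2 fold change -3.74, SE 0.24, adjusted p = 2.16e-15 by edgeR) and 45.5-fold with CpG + IFNα (log2 fold change -5.51, SE 0.28), where only 3, 5 and 4 UMIs were left per sample. CpG + IFNα was below CpG by a further 1.77 on the log2 scale (log2 fold change -1.77, 95% interval -2.68 to -0.86, adjusted p = 0.0060 by edgeR). That call was lost when counts were thinned to the smallest total (log2 fold change -1.37, adjusted p = 0.308).

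With IFNα alone, Mxd4 fell by 0.53 on the log2 scale (adjusted p = 0.0229 by edgeR). This smaller change was no longer called without unstimulated replicate 3, the highest sample (log2 fold change -0.36, adjusted p = 0.22), nor with DESeq2 (adjusted p = 0.162) or with counts thinned to the smallest total (adjusted p = 0.121). The effect of IFNα on Mxd4 was lower with CpG than without it by 1.24 on the log2 scale, which did not pass (interaction -1.24, 95% interval -2.21 to -0.27, adjusted p = 0.104). Without unstimulated replicate 3 the adjusted p of the interaction was 0.0708, without CpG replicate 2 it was 0.0533, and with a replicate block it was 0.0924 (interaction -1.23). An annotated antisense gene, Gm42846, lies over the 3′ end of Mxd4 and was not analysed here.

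Mnt (chromosome 11, 74830920 to 74845725), the antagonist that most tissues express and that buffers MYC, responded to CpG but not detectably to IFNα. Its level was 67.5, 49.7 and 48.9 CPM in unstimulated samples, 47.1, 47.5 and 56.0 CPM with IFNα, 17.1, 33.3 and 24.8 CPM with CpG, and 23.3, 25 and 23.0 CPM with CpG + IFNα. Samples with CpG were below all samples without it, and within each of these pairs of groups the samples overlapped. Mnt fell 2.25-fold with CpG (log2 fold change -1.17, SE 0.20, adjusted p = 5.38e-06 by edgeR) and 2.33-fold with CpG + IFNα. It was no DEG with CpG without unstimulated replicate 1 (log2 fold change -0.98) or CpG replicate 1 (-0.94), although the adjusted p stayed under 0.1. The effect of IFNα was -0.15 on the log2 scale without CpG (95% interval -0.53 to 0.23) and -0.05 with it (95% interval -0.47 to 0.37), so that changes of the size seen with CpG lie outside both intervals.

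Mxd1 (chromosome 6, 86647042 to 86669161), an antagonist induced as cells leave the cycle, was low throughout and spread widely in unstimulated cells. It was measured at 18.9, 11.6 and 5.24 CPM unstimulated, 8.01, 9.63 and 9.84 CPM with IFNα, 3.66, 6.37 and 5.45 CPM with CpG, and 1.08, 2.74 and 1.02 CPM with CpG + IFNα. The CpG + IFNα samples lay below all others, but unstimulated and CpG samples overlapped. Mxd1 fell with CpG + IFNα by 2.70 on the log2 scale compared with unstimulated cells (SE 0.49, adjusted p = 1.18e-05 by edgeR) and by 2.34 compared with IFNα. These sizes are uncertain, since 2 of the 3 CpG + IFNα samples were below the level of 3 counts, and without CpG + IFNα replicate 2 the log2 fold changes were -3.38 and -3.02. With CpG alone the log2 fold change of -1.20 (SE 0.43, adjusted p = 0.0132) was lost without unstimulated replicate 1 (-0.65, adjusted p = 0.26), and Mxd1 was no DEG without CpG replicate 1 (-0.997, adjusted p = 0.0619). The difference between CpG + IFNα and CpG, a log2 fold change of -1.50 (SE 0.53, adjusted p = 0.0678), rests on 2, 8 and 2 UMIs with CpG + IFNα and 6, 9 and 11 with CpG, and was -2.20 without CpG + IFNα replicate 2. It was lost without CpG replicate 2 (adjusted p = 0.187), CpG replicate 3 (adjusted p = 0.186), CpG + IFNα replicate 1 (adjusted p = 0.177) or CpG + IFNα replicate 3 (adjusted p = 0.18), and with DESeq2 (adjusted p = 0.196) or counts thinned to the smallest total (adjusted p = 0.377). A gene inside Mxd1 on the same strand, Gm44292, had 21 UMIs against 113 for Mxd1.

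Mxi1 (chromosome 19, 53310518 to 53375810), also called MXD2, stood apart from Mxd4 in the direction of its response to IFNα, which however did not pass the test. The samples had 8.10, 7.41 and 13.1 CPM unstimulated, 12.0, 12.0 and 15.9 CPM with IFNα, 3.66, 7.78 and 8.43 CPM with CpG, and 4.88, 5.82 and 4.59 CPM with CpG + IFNα. Samples with IFNα alone were above every sample with CpG, and unstimulated samples overlapped with both IFNα and CpG. The log2 fold changes were 0.46 with IFNα (95% interval -0.27 to 1.18) and -0.53 with CpG (95% interval -1.32 to 0.26), neither called. With CpG + IFNα, Mxi1 fell by 0.89 compared with unstimulated cells (adjusted p = 0.0384 by edgeR), a call lost without unstimulated replicate 3 (log2 fold change -0.56, adjusted p = 0.289) and with DESeq2 (adjusted p = 0.136), counts thinned to the smallest total (adjusted p = 0.145) or no filter on low counts (adjusted p = 0.118). Mxi1 was a DEG there with upper-quartile normalization (-1.02, adjusted p = 0.0193 by edgeR) and without unstimulated replicate 2 (-1.01, adjusted p = 0.0358 by edgeR). Compared with IFNα alone it fell by 1.35 (adjusted p = 0.00083 by edgeR), which held in all 22 alternatives.

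Mlx (chromosome 11, 101087277 to 101092207), which links the MXD proteins to the glucose-sensing MondoA, varied little outside the IFNα group. It was at 20.7, 18.0 and 20.1 CPM unstimulated, 5.01, 16.2 and 12.9 CPM with IFNα, 18.3, 16.3 and 19.8 CPM with CpG, and 22.2, 20.2 and 19.9 CPM with CpG + IFNα. All IFNα samples lay below all others, with IFNα replicate 1 (5 UMIs) far below the other two. The log2 fold change with IFNα was -0.69 (SE 0.30, adjusted p = 0.102 by edgeR), or -0.41 without IFNα replicate 1 (adjusted p = 0.372) and -1.05 without IFNα replicate 2 (adjusted p = 0.028). CpG + IFNα was above IFNα by 0.76 (adjusted p = 0.0101 by edgeR), which was lost with counts thinned to the smallest total (0.54, adjusted p = 0.239) and was 0.51 without IFNα replicate 1. Without IFNα replicate 2 it was 1.14 (adjusted p = 0.00197 by edgeR), and Mlx was a DEG. Changes with CpG (-0.11, 95% interval -0.65 to 0.43) and with CpG + IFNα compared with unstimulated cells (0.07, 95% interval -0.44 to 0.58) were not detectable. Over all 22 alternatives the adjusted p for IFNα ranged from 0.028 to 0.372, with 7 of them under 0.1. The interaction of 0.87 did not pass either (adjusted p = 0.151), but did without IFNα replicate 2 (1.23, adjusted p = 0.0471). The 3′ end of Mlx overlaps that of Psmc3ip on the opposite strand (322 UMIs against 344 for Mlx), and reads of the overlap cannot be told apart without the strand setting. Psmc3ip itself rose by 2.18 on the log2 scale with CpG.

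**Figure D2:**
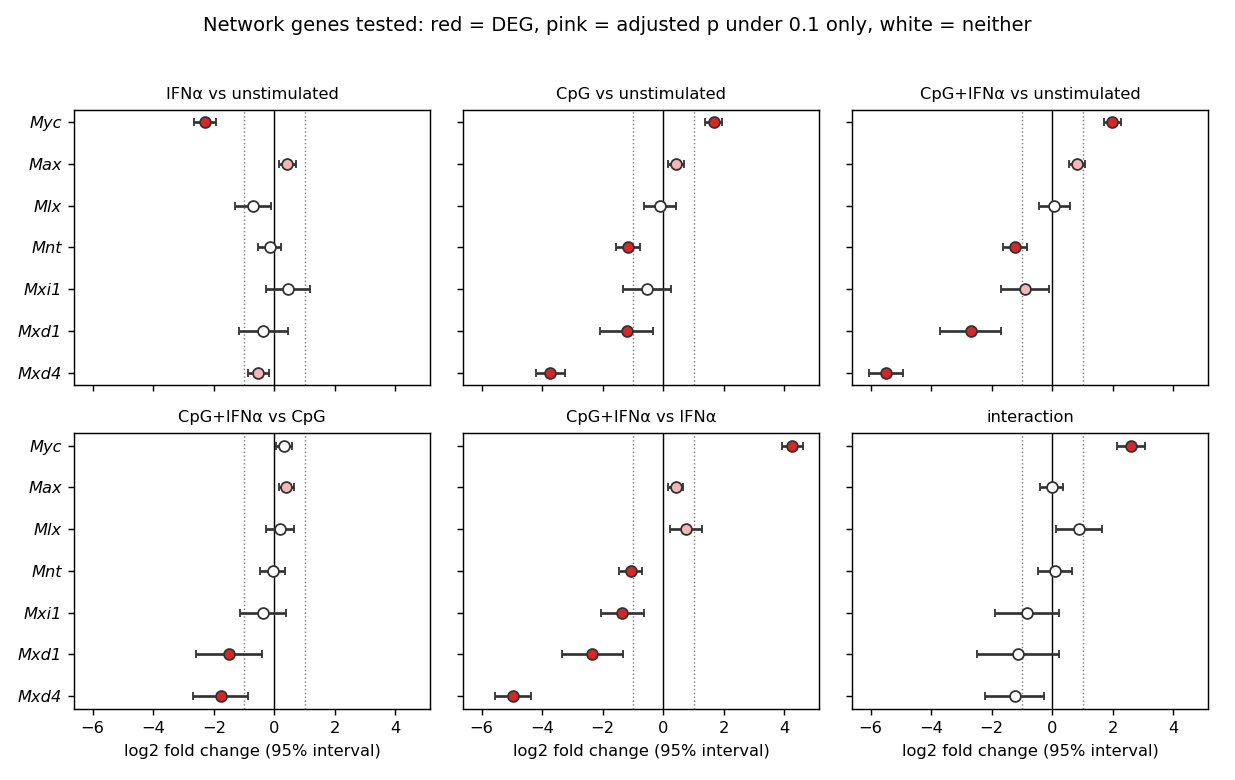
Log2 fold changes of the 7 network genes tested in the 6 comparisons (points, with 95% intervals as bars); red points are DEGs, pink points have an adjusted p under 0.1 but a log2 fold change of 1 or less in size, white points neither, and dotted lines mark a log2 fold change of 1 in either direction. Myc is at -2.28 with IFNα, 1.66 with CpG and 2.60 in the interaction, while Mxd4 is at -3.74 with CpG and -5.51 with CpG + IFNα.

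In counts, 1 of the 7 genes tested was a DEG with IFNα, Myc, which was down-regulated, where 4.56% of all 9431 genes were up-regulated and 4.07% down-regulated. With CpG, 1 gene was up-regulated (Myc) and 3 were down-regulated (Mxd4, Mnt and Mxd1), against 20.1% and 25.5% of all genes. The same numbers were found with CpG + IFNα, for the same genes, against 20.3% and 25.6%. CpG + IFNα compared with CpG had 2 down-regulated genes (Mxd4 and Mxd1), where 2.95% of all genes were up-regulated and 2.01% down-regulated. Compared with IFNα, CpG + IFNα had 1 up-regulated (Myc) and 4 down-regulated genes (Mxd4, Mnt, Mxd1 and Mxi1), against 18.7% and 25.5%, and Mnt was no DEG there without IFNα replicate 3 (log2 fold change -0.97) or without the filter on low counts (-0.96). The interaction had 1, Myc, up-regulated, where 3.09% of all genes were up-regulated and 3.17% down-regulated. The comparisons with unstimulated cells share those samples. With CpG, where the background in both directions is high, nothing particular to the network follows from these counts.

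The balance between Myc and its antagonists was taken in each sample as the CPM of Myc divided by the summed CPM of Mxd1, Mxd3, Mxd4, Mxi1 and Mnt. It is a ratio of RNA, not of protein, and is given as a description without a test. The ratio was 1.37, 0.95 and 0.960 in unstimulated samples, 0.378, 0.202 and 0.276 with IFNα, 18.3, 11.9 and 11.1 with CpG, and 23.9, 17.8 and 23.1 with CpG + IFNα. Antagonist transcripts thus outnumbered those of Myc in all IFNα samples, were about level with them in unstimulated cells, and were outnumbered by at least 11.1 to 1 in every sample with CpG. The CpG and CpG + IFNα samples overlapped.

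The numerator and the denominator moved differently with each stimulus. The summed antagonists were at 161 ± 11.8 CPM unstimulated, 133 ± 6.57 CPM with IFNα, 42.9 ± 10.4 CPM with CpG alone and 32.8 ± 2.70 CPM with CpG + IFNα (SD, n = 3 per group). With IFNα the change was mostly in Myc, whereas with CpG both terms moved. The makeup of the antagonists also changed. Mxd4 gave between 41.1% and 61.1% of antagonist transcripts in unstimulated samples and between 4.76% and 6.56% with CpG + IFNα, while the share of Mnt went from between 28.3% and 41.7% to between 69.5% and 74.1%. Myc per Max transcript was 2.38, 1.65 and 1.81 in unstimulated samples, 0.466, 0.208 and 0.293 with IFNα, 5.27, 5.10 and 3.73 with CpG, and 4.84, 4.12 and 4.13 with CpG + IFNα. Max RNA exceeded Myc RNA only in the IFNα samples, in all 3 of them, and CpG and CpG + IFNα overlapped in this ratio as well.

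**Figure D3:**
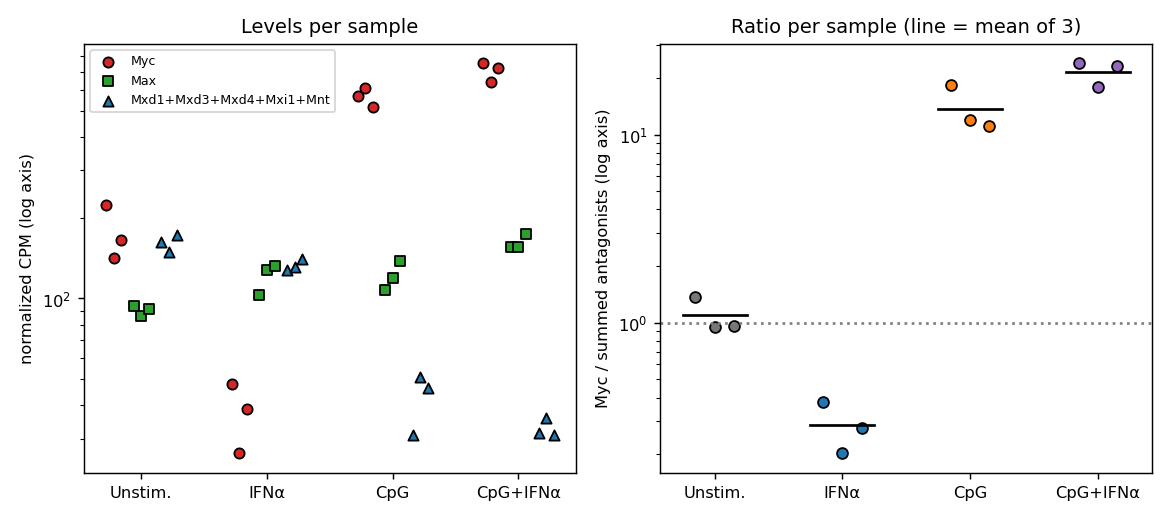
Left, normalized CPM of Myc, Max and the summed antagonists in each of the 12 samples (log axis); right, the ratio of Myc to the summed antagonists per sample (log axis), with a line at the mean of 3 and a dotted line at a ratio of 1. The ratio lies between 0.202 and 0.378 with IFNα, between 0.95 and 1.37 unstimulated, and between 11.1 and 23.9 in all samples with CpG.

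Of the wider network, Mga, a large MAX partner that represses germline genes, averaged 82.6 ± 8.47 CPM unstimulated, 100.3 ± 11.6 CPM with IFNα, 65.3 ± 3.58 CPM with CpG alone and 85.2 ± 17.8 CPM with CpG + IFNα (SD, 3 samples per group). It fell with CpG (log2 fold change -0.35, adjusted p = 0.0497 by edgeR) and was higher with CpG + IFNα than with CpG (0.40, adjusted p = 0.0694), although these samples overlapped. Mlxip, which encodes the MLX partner MondoA, was at 73.7 ± 10.5, 67.2 ± 8.24, 28.0 ± 3.19 and 31.0 ± 2.78 CPM in the same order, and fell with CpG by 1.39 on the log2 scale (SE 0.17, adjusted p = 1.24e-08 by edgeR). Txnip, a target of MondoA:MLX that restrains glucose uptake, was at 486 ± 66.1, 350 ± 33.3, 48.7 ± 2.34 and 49.5 ± 4.54 CPM in that order. It fell 9.98-fold with CpG (log2 fold change -3.32, SE 0.13) and by 0.48 on the log2 scale with IFNα. Mlxip did not pass with IFNα (log2 fold change -0.13, adjusted p = 0.627 by edgeR), and a link between Mlxip and Txnip was not tested. CpG + IFNα compared with CpG changed neither Mlxip (log2 fold change 0.15, 95% interval -0.21 to 0.50) nor Txnip (0.03, 95% interval -0.28 to 0.34) detectably. Mycl, Mlxipl and Arrdc4 were not analysed here.

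Textbook targets activated by MYC were mostly up-regulated with CpG. The list was chosen with earlier results of these data known, so its counts are a description. Of 55 genes listed, 52 were tested, and with CpG 47 were up-regulated and 1 was down-regulated (E2f2), with a median log2 fold change of 2.39 where 20.1% of all genes were up-regulated and 25.5% down-regulated and the median of all genes was -0.03. Nop58, a component of the box C/D particles that modify ribosomal RNA, went from 144 ± 17.9 to 1206 ± 16.1 CPM (SD, n = 3; log2 fold change 3.05, adjusted p = 1.23e-19 by edgeR). Srm, which encodes spermidine synthase, went from 70.4 ± 19.3 to 869 ± 47.5 CPM (SD, n = 3; log2 fold change 3.62, adjusted p = 3.6e-19 by edgeR). The exception E2f2, a transcription factor of the cell cycle, fell by 3.43. The promoters of these targets held the E-box in 19 of 62 cases, or 30.6%, beside 11% for the genes tested and 6.67%, 6.25% and 5% for the MYC cofactor, MYC stability and SIN3 lists described below, with 1 promoter each. Promoters were on hand for 47 of the 55 targets, some with more than 1, and 16 of these genes held it (34%, beside 13% of genes tested). For the MYC cofactor, MYC stability and SIN3 lists promoters were on hand for 13, 12 and 14 genes. Genes can be listed as MYC targets because of such sites, so the share is not independent of the choice of the list. These shares are a description and were not tested.

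With IFNα, where Myc itself fell 4.87-fold, the median log2 fold change over the same 52 genes was -0.06, with 1 up-regulated and 1 down-regulated (all genes -0.00), no larger a share than the 4.56% and 4.07% of all genes. The up-regulated one was Slc7a5, an amino acid transporter, and the down-regulated one was E2f2, with Tfrc, the transferrin receptor gene, just inside the fold threshold (log2 fold change -0.99, adjusted p = 0.0011 by edgeR). By the adjusted p alone, 8 of the 52 rose and 8 fell, where 12.4% of all genes rose and 11.9% fell. Between 1 and 4 were down-regulated over the alternatives, with 4 when unstimulated replicate 2 was left out. With CpG + IFNα, 48 were up-regulated and 1 down-regulated, against 20.3% and 25.6% of all genes, with a median of 2.52. CpG + IFNα compared with CpG had a median of 0.05 (all genes -0.04), with 1 up-regulated gene, Ccnd2, where 2.95% of all genes were up-regulated. This gene encodes cyclin D2, which drives entry into the cell cycle, and it was at 206 ± 37.2 CPM unstimulated, 201 ± 33.1 with IFNα, 581 ± 23.2 with CpG alone and 1368 ± 129 with CpG + IFNα (SD, n = 3 per group), with a log2 fold change of 1.24 in that comparison (SE 0.12, adjusted p = 8.38e-10 by edgeR).

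Of 9 genes known to be repressed by MYC, 7 were listed in the table and 4 passed the filter. With CpG, Cdkn1b, Gadd45a and Ndrg1 were down-regulated and Cdkn1a was up-regulated, where 25.5% and 20.1% of all genes were; with 4 genes, nothing particular to the list follows. Cdkn1b, which encodes the cell cycle inhibitor p27, went from 374 ± 56.9 to 77.4 ± 10.3 CPM (SD, n = 3; log2 fold change -2.28, adjusted p = 2.14e-16 by edgeR). Gadd45a, a growth arrest gene, went from 61.1 ± 18.2 to 1.52 ± 1.20 CPM with CpG (SD, n = 3 per group) and Ndrg1 from 11.8 ± 4.88 to 1.81 ± 0.318 CPM. Both are near the level of 3 counts in the CpG samples (1.49 to 2.12 CPM), so that no fold is given for them there. With IFNα, Gadd45a was at 19.9 ± 2.92 CPM (SD, n = 3), a log2 fold change of -1.60 (adjusted p = 4.72e-06 by edgeR). Cdkn1a, the gene of the cell cycle inhibitor p21, instead was higher with each stimulus, at 8.37 ± 5.65 CPM unstimulated, 24.6 ± 3.27 with IFNα, 101 ± 30.3 with CpG alone and 254 ± 45.1 with CpG + IFNα (SD, n = 3 per group), and CpG + IFNα was above CpG by 1.34 (SE 0.16, adjusted p = 6.34e-08 by edgeR).

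**Figure D4:**
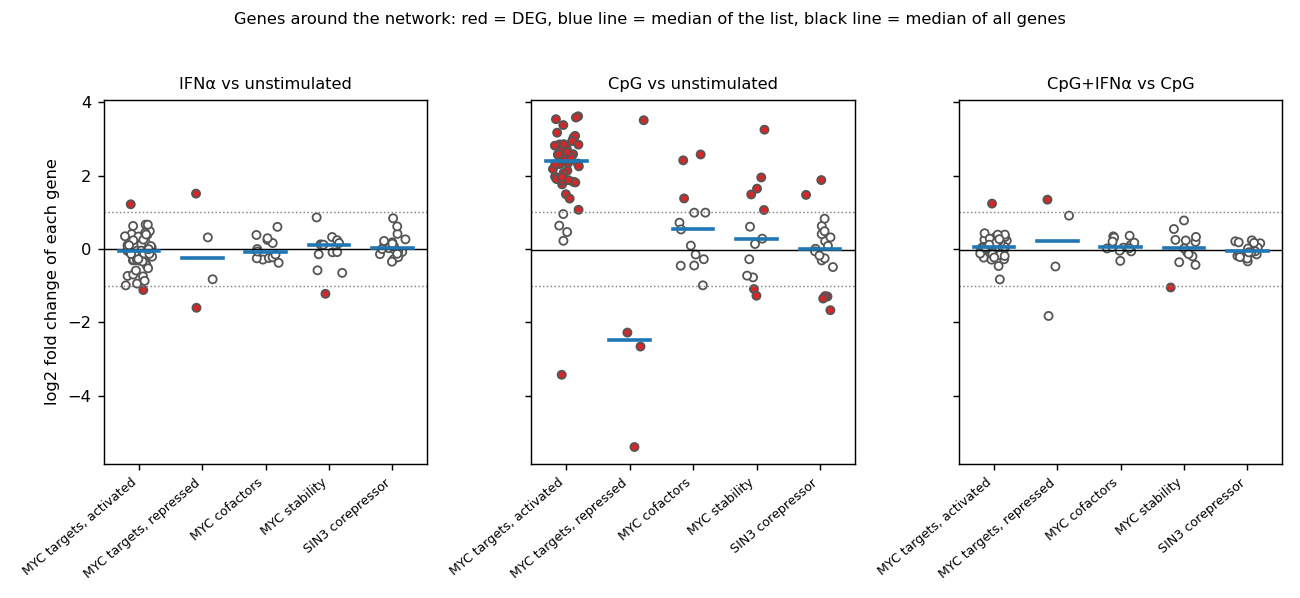
Log2 fold changes of the genes tested in 5 lists around the network (1 point per gene; red points are DEGs) for IFNα and CpG against unstimulated cells and for CpG + IFNα against CpG; blue lines mark the median of the list, the black line the median of all genes, and dotted lines a log2 fold change of 1 in either direction. The activated MYC targets have a median of 2.39 with CpG, against -0.06 with IFNα and 0.05 in CpG + IFNα compared with CpG.

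Of 13 tested regulators of MYC stability, 5 were up-regulated and 2 down-regulated with CpG (median 0.28), where 20.1% and 25.5% of all genes were. Pim2, a kinase that stabilizes MYC, was at 48.2 ± 10.0 CPM unstimulated, 52.5 ± 6.44 with IFNα, 458 ± 24.0 with CpG alone and 222 ± 20.01 with CpG + IFNα (SD, n = 3 per group). It rose by 3.25 with CpG and was lower with CpG + IFNα than with CpG (log2 fold change -1.05, SE 0.11, adjusted p = 6.39e-09 by edgeR), the only DEG of the list in that comparison, where 2.95% of all genes were up-regulated and 2.01% down-regulated. Its size lay so near the fold threshold that it was no DEG without CpG + IFNα replicate 2, without the filter on low counts or with counts thinned to the smallest total. Pim1, a related kinase, fell with IFNα as Myc did (log2 fold change -1.22) and was the only DEG of the list there, against 4.56% of all genes up-regulated and 4.07% down-regulated. It also fell with CpG (log2 fold change -0.78), where Myc rose. Bin1, a MYC-interacting tumour suppressor, fell by 1.28 with CpG and Usp28, a deubiquitinase of MYC, by 1.09 (adjusted p = 0.0081 by edgeR). Usp28 was at 12.3 ± 2.98 CPM unstimulated and at 5.63 ± 0.755 CPM with CpG (SD, n = 3 per group). The list had 1 down-regulated DEG with CpG without unstimulated replicate 2 or without CpG replicate 2. Over 22 alternatives between 3 and 5 genes of the list were up-regulated with CpG, and between 4 and 5 with a sample left out.

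Of 13 tested MYC cofactors, 3 were up-regulated with CpG (median 0.53), namely Ruvbl2, Ruvbl1 and Wdr5. Ruvbl2 and Ruvbl1 encode partner ATPases of chromatin remodelling complexes and rose by 2.58 and 2.42 on the log2 scale, and WDR5 is a chromatin adaptor that MYC binds. The up-regulated share of all genes was 20.1%, so the count lay near the background. Over 22 alternatives between 3 and 5 cofactors were up-regulated and up to 1 was down-regulated, and Kat2a and Mycbp (0.99 each) and Trrap (-0.99) lay just inside the fold threshold. Of 19 tested genes of the SIN3 corepressor that the MXD proteins recruit, 2 were up-regulated and 4 down-regulated with CpG (median 0.00), no larger a share than the 20.1% and 25.5% of all genes. The deacetylase gene Hdac2 rose by 1.88 and the histone chaperone gene Rbbp7 by 1.47, whereas Arid4a and Arid4b, subunits that read chromatin, fell by 1.67 and 1.35, and Ing1 and Ing2 by 1.30 and 1.28. The scaffold Sin3a fell by 0.49 (adjusted p = 0.012 by edgeR) and its homologue Sin3b rose by 0.32 (adjusted p = 0.022), neither as a DEG.

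Finally, the genes whose level over the 12 samples was most like that of Myc, Max and Mxd4 were found by Pearson's correlation of log2(CPM + 1) among 7963 genes with a mean of at least 10 CPM. The 12 samples are 4 groups of 3 that share stimuli, so these values are a description. For Myc they were BC035044 (r = 0.993), Taf4b (0.988) and Siah2 (0.985), which were also lowest with IFNα, at 11.8, 7.79 and 26.6 CPM, and highest in samples with CpG. Those most like Max were Pnpt1 (0.922), Phip (0.913) and Slc25a12 (0.905), all lowest in unstimulated cells and highest with CpG + IFNα. Those most like Mxd4 were Cat (0.994), Aldh2 (0.994) and Lyl1 (0.994), which were at 133, 241 and 165 CPM unstimulated and at 8.23, 23.8 and 6.95 CPM with CpG + IFNα. Within the network, Mxd4 was most like Mnt (r = 0.867) and Mxd1 (0.811), and Myc ran opposite to Mxi1 (-0.825) and Mxd4 (-0.824), while the correlation of Myc with Max was 0.386.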

How the data were processed

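Transcripts of splenic FO B cells were counted in 12 samples, 3 per group, by bulk RNA barcoding sequencing, in which an oligo(dT) primer carries a sample barcode and a UMI. The authors deposited raw UMI counts per gene without normalization. Per the submitters' processing notes, UMI-tools 1.1.2, Trim Galore 0.6.7, HISAT2 2.2.1 and featureCounts 2.0.1 were used with GRCm38. The annotation release and the strand setting are not given in the sources used here. GENCODE M21 held all 22561 gene identifiers and gave the positions.

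The deposited counts were scaled by TMM in edgeR 4.0.16 (R 4.3.3). The 9431 genes that passed filterByExpr entered 1 quasi-likelihood fit over all 4 groups (glmQLFit, 8 residual degrees of freedom) and were tested by glmQLFTest, with Benjamini-Hochberg adjustment over all genes tested. Standard errors were taken from the estimate and its F statistic, and intervals are 95%. The fit was checked on simulated data. Depth was between 922450 and 2923865 UMIs per sample, and a group at 3 counts or fewer per sample was taken to be at the detection limit. Replicates differed beyond counting noise in all pairs (chi-square between 1.90 and 6.31 per degree of freedom).

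The members and the lists were chosen with earlier results of these data known. Besides the 9 members, genes named are those of the wider network, the 2 DEGs per list and direction with the smallest p with CpG and the 1 in CpG + IFNα compared with CpG, and the 3 genes most like Myc, Max and Mxd4. Fos, Psmc3ip, Slc7a5, Tfrc, Pim1, Wdr5, Kat2a, Mycbp, Trrap, Ndrg1, Ing1, Ing2, Sin3a and Sin3b were named after their values were seen. Lists were described by counts and medians and not tested.

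The alternatives were DESeq2 size factors, library size only and upper-quartile normalization, no filter and a filter of at least 10 counts, DESeq2 1.42.0, a fit of the groups compared, other thresholds, counts thinned to the smallest total, a replicate block, removal of mitochondrial and rRNA genes, each sample left out in turn, and the balance without Mnt or Mxd4. Promoters came from RefSeq on GRCm38.p6. Genes and markers that the table used here did not list, such as Cd3e, Cd4, Tnfrsf17 and S100a9, were not analysed here. A gene that falls under the naming rule is not reported here.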

Additional observations from a re-analysis of the deposited data

Results flagged for a closer look

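The effect of IFNα on Myc differed between cells with and without CpG. With IFNα alone the log2 fold change was -2.28, with all 3 samples below all 3 unstimulated samples, and with CpG present it was 0.32, with all 3 CpG + IFNα samples above all 3 CpG samples. The difference between these effects, tested as an interaction by edgeR's quasi-likelihood test, was 2.60 on the log2 scale (SE 0.22, adjusted p = 3.78e-10).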

How the results depend on the processing

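Of 42 log2 fold changes of network genes, 22 kept their direction and their side of the adjusted p threshold in the alternatives that applied. At most 22 of the 25 alternatives applied to a fold change. By the adjusted p, 10 lost a call and 4 gained one in at least 1 of them. DEG calls also need the fold threshold, and Mnt lost that call with CpG and in CpG + IFNα compared with IFNα, as given above. The 6 that turned direction were not called in any fit, and the cause was not tested. They were Mxd1 with IFNα (-0.77 to 0.18 with a sample left out), Mnt with IFNα (-0.27 to 0.029), Mlx with CpG + IFNα (-0.061 with upper-quartile normalization and -0.22 with counts thinned to the smallest total), Mnt in CpG + IFNα compared with CpG (0.010 without the filter on low counts, -0.26 to 0.17 with a sample left out), and 2 interactions. The interaction of Mnt was -0.28 with counts thinned and -0.11 to 0.30 with a sample left out. That of Max was 0.0095 with DESeq2 size factors, 0.049 with library size only, 0.020 with the upper quartile, 0.036 without the filter, 0.0010 with DESeq2, 0.043 with counts thinned, 0.047 without mitochondrial and rRNA genes, and -0.12 to 0.081 with a sample left out. Upper-quartile normalization shifted the median of all genes to -0.14 with CpG, -0.14 with CpG + IFNα and -0.13 in CpG + IFNα compared with IFNα.

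The number of network DEGs with IFNα was 3 with no fold threshold, where 12.4% of all genes rose and 11.9% fell. With a sample left out it was 1 to 2. It was 2 without IFNα replicate 2, where Mlx passed, and 421 of 9593 genes were up-regulated there and 510 down-regulated. With CpG it was 1 with a log2 fold change over 2, 2 with glmTreat and 2 to 4 with a sample left out. It was 2 (Myc and Mxd4) without unstimulated replicate 1 (1973 of 9859 genes up-regulated and 2486 down-regulated) or CpG replicate 1 (1911 and 2445 of 9636). With CpG + IFNα it was 2 with a log2 fold change over 2. It was 5, with Mxi1, under upper-quartile normalization (1667 of 9431 genes up-regulated and 2679 down-regulated) or without unstimulated replicate 2 (2024 and 2554 of 9877). For CpG + IFNα compared with CpG it was 1 with at least 10 counts (273 of 9002 genes up-regulated and 184 down-regulated) or DESeq2 (257 and 133 of 20341). It was 0 by edgeR in a fit of both groups alone (266 and 146 of 8608), where Mxd4 and Mxd1 did not pass the filter. With counts thinned it was 0 as well (249 and 189 of 8718). It was also 0 with a log2 fold change over 2 or with glmTreat, and 1 to 2 with a sample left out. Compared with IFNα it was 3 with a log2 fold change over 2 and 3 with glmTreat. With a sample left out it was 4 to 6. It was 6 without IFNα replicate 2, where Mlx passed (1849 of 9593 genes up-regulated and 2415 down-regulated). For the interaction it was 1 to 2 with a sample left out. Totals of all genes are not given for every setting, and nothing particular to the network is read from these counts. The ratio of Myc to its antagonists without Mnt was 1.71 unstimulated, 0.459 under IFNα, 32.8 under CpG and 79.7 under CpG + IFNα, and without Mxd4 it was 2.29 unstimulated and 0.511 with IFNα, so that the order of the means stayed as with all antagonists. Of 60 counts of DEGs in the lists, 40 stayed within 1.5 times.

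Replicate numbers were not shown to pair the samples, since deviations of same-numbered samples correlated between -0.07 and 0.20 in 18 pairs, not all over 0.1, against -0.20 to 0.05 in 36 pairs of other numbers. Among the stimulated groups the 9 same-numbered pairs were all positive (0.0090 to 0.20), against -0.20 to 0.05 in the other 18, a hint from the data and not the design. The replicate block gave 2 network DEGs in the interaction, adding Mxd4 (-1.23, adjusted p = 0.0924 by edgeR), and called Myc in CpG + IFNα compared with CpG (0.32, adjusted p = 0.0531) and Mlx with IFNα (-0.70, adjusted p = 0.099).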
